A study of Macaca mulatta with 12 samples.

Results

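EYA2 encodes an eyes absent protein that helps DNA-binding factors to switch genes on, and it was followed across the B cells of 6 juvenile rhesus macaques (Macaca mulatta, Indian origin, 2 to 3 years old) that were healthy and unmanipulated. It is 1 of 22584 genes in the deposited count matrix, and 2766 of 13324 annotated B cells held 1 or more EYA2 UMIs (unique molecular identifiers, each standing for 1 captured mRNA molecule). The 2 males were run in batch 1 and the 4 females in batch 2, so that sex and batch cannot be told apart, and none of the animals was treated or genetically altered. Each animal gave 1 single-cell 5′ expression library and 1 B cell receptor library from peripheral blood mononuclear cells. The authors' annotation sets 12 B cell subtypes and a Contamination class of 525 cells, and its subtype names are used here as deposited (MBC, memory B cell). EYA2 was selected on its measured counts in these same data, namely its high level in class-switched memory cells, so its levels by subtype, by heavy chain class and by contig are a description without a test.

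Proteins of the EYA family lack a DNA-binding domain of their own and act on genes through partners of the sine oculis homeobox family, and they also carry a phosphatase domain whose known substrates include the damage-marked histone H2AX. Class switching is the DNA recombination by which a B cell exchanges the constant part of its heavy chain from IgM and IgD to IgG, IgA or IgE. Switched cells in blood are mainly memory cells that have met antigen, and their V regions often carry somatic mutations.

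The libraries held 3642517 to 20023015 UMIs each. The median per cell was 3865 and 4039 UMIs in the males and 5694 to 6727 UMIs in the females. Of 13752 distinct cell barcodes, 96 occurred in 2 or more libraries. Heavy chain class was known from a single heavy chain contig in 10293 B cells, of which 2380 were switched and 7913 unswitched. Switched memory cells were read for markers of B cells and of other cells. Memory and naive markers had no part in this reading, so it does not check the label memory. The 8 B cell markers summed to 3619 to 5554 CPM (UMI counts scaled to a library total of 1e+06 UMIs of named, non-immunoglobulin genes). In the same cells 11 T cell markers summed to 68.6 to 312 CPM, 8 NK cell markers to 25.2 to 435 CPM and 9 monocyte markers to 53.3 to 89.4 CPM. The B cell markers gave 2250 to 4537 CPM in the Contamination class, which overlaps their range in switched memory cells.

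CD11c+ MBC 2 held the highest EYA2 level of the 12 subtypes and 62.6% of all EYA2 UMIs of B cells, with 11.5% of the cells. Its EYA2 level was 605 and 209 CPM in males 1 and 2, and 619, 466, 573 and 369 CPM in females 1 to 4, a mean of 474 ± 161 CPM (SD, n = 6). Male 2 lay lowest in this subtype and female 1 highest. C-MBC 1 followed at 128 and 111 CPM in the males and 221, 243, 336 and 227 CPM in the females (211 ± 82.4 CPM, SD, n = 6). CD11c+ MBC 2 was above C-MBC 1 in 6 of 6 animals, by a mean of 262 ± 147 CPM (SD).

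CD11c+ MBC 1 stood at 61.4 and 42.9 CPM in the males and 109, 101, 113 and 221 CPM in the females (108 ± 62.0 CPM, SD, n = 6). C-MBC 2 averaged 87.2 ± 25.8 CPM and Naive B cells 2 averaged 203 ± 126 CPM (SD, n = 6 each). Antibody-secreting cells had 10 or more cells in 3 animals only and averaged 187 ± 42.1 CPM (SD, n = 3). That value depends on leaving immunoglobulin and unnamed genes out of the total: with all genes in the total it was 83.8 ± 12.2 CPM, below the 93.6 ± 55.1 CPM of CD11c+ MBC 1 on the same scale (SD, n = 3 and 6). Thinned to 1000 UMIs a cell it was 133 CPM. Neighbours in this order did not separate beyond their spread: C-MBC 1 exceeded Naive B cells 2 in 3 of 6 animals, and CD11c+ MBC 1 exceeded C-MBC 2 in 3 of 6.

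The subtypes named M-MBC stood far lower, at 12.01 ± 3.95 CPM in M-MBC 2 and 11.3 ± 8.42 CPM in M-MBC 1 (SD, n = 6 each), and M-MBC 2 lay above M-MBC 1 in 2 of 6 animals. C-MBC 2 was above M-MBC 2 in 6 of 6 animals. Activated B cells, M-MZL BC and Naive B cells 1 averaged 1.51 ± 1.85, 0.854 ± 0.711 and 0.837 ± 1.07 CPM (SD, n = 6 each). Naive B cells 3 had 0 positive cells of 125, which allows a share of up to 2.40% of cells with a UMI by counting error alone. The Contamination class, whose cells the authors set apart from the B cells, stood at 17.8 ± 14.6 CPM (SD, n = 6).

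The share of cells with an EYA2 UMI was also highest in CD11c+ MBC 2 and C-MBC 1, but at full depth the order below them changed. It was 73.1% ± 19.1 in CD11c+ MBC 2, 49.4% ± 17.0 in C-MBC 1, 28.4% ± 9.96 in C-MBC 2, 25.7% ± 11.7 in CD11c+ MBC 1 and 19.6% ± 6.34 in Naive B cells 2 (SD, n = 6 each), and 33.8% ± 17.2 in antibody-secreting cells (SD, n = 3). By share at full depth, Naive B cells 2 thus lay below C-MBC 2 and CD11c+ MBC 1, which they exceeded by mean CPM. These 3 subtypes differed in depth, with a median per cell, averaged over animals, of 3188, 7412 and 5345 UMIs in that order. In Naive B cells 1, which serves as the level that free RNA could give, 3 of 1614 cells were positive (0.186%). The median of UMIs per cell, averaged over animals, was 7279 for CD11c+ MBC 2 and 4482 for Naive B cells 1. With every cell thinned to 2000 UMIs, the shares were 46.5% ± 11.2 in CD11c+ MBC 2, 26.1% ± 8.42 in C-MBC 1, 14.3% ± 7.77 in CD11c+ MBC 1 and 0.0933% ± 0.123 in Naive B cells 1 (SD, n = 6 each). At that depth Naive B cells 2 stood at 15.4% ± 5.42 and C-MBC 2 at 11.8% ± 3.15 (SD, n = 6 each). By mean thinned share, Naive B cells 2 thus lay above CD11c+ MBC 1 and C-MBC 2, with overlapping spreads. Cells under 2000 UMIs were left out of these shares. A positive cell held 4.17 ± 1.25 EYA2 UMIs in CD11c+ MBC 2, 2.38 ± 0.640 in C-MBC 1 and 1.44 ± 0.284 in M-MBC 1 (SD over animals).

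**Figure D1:**
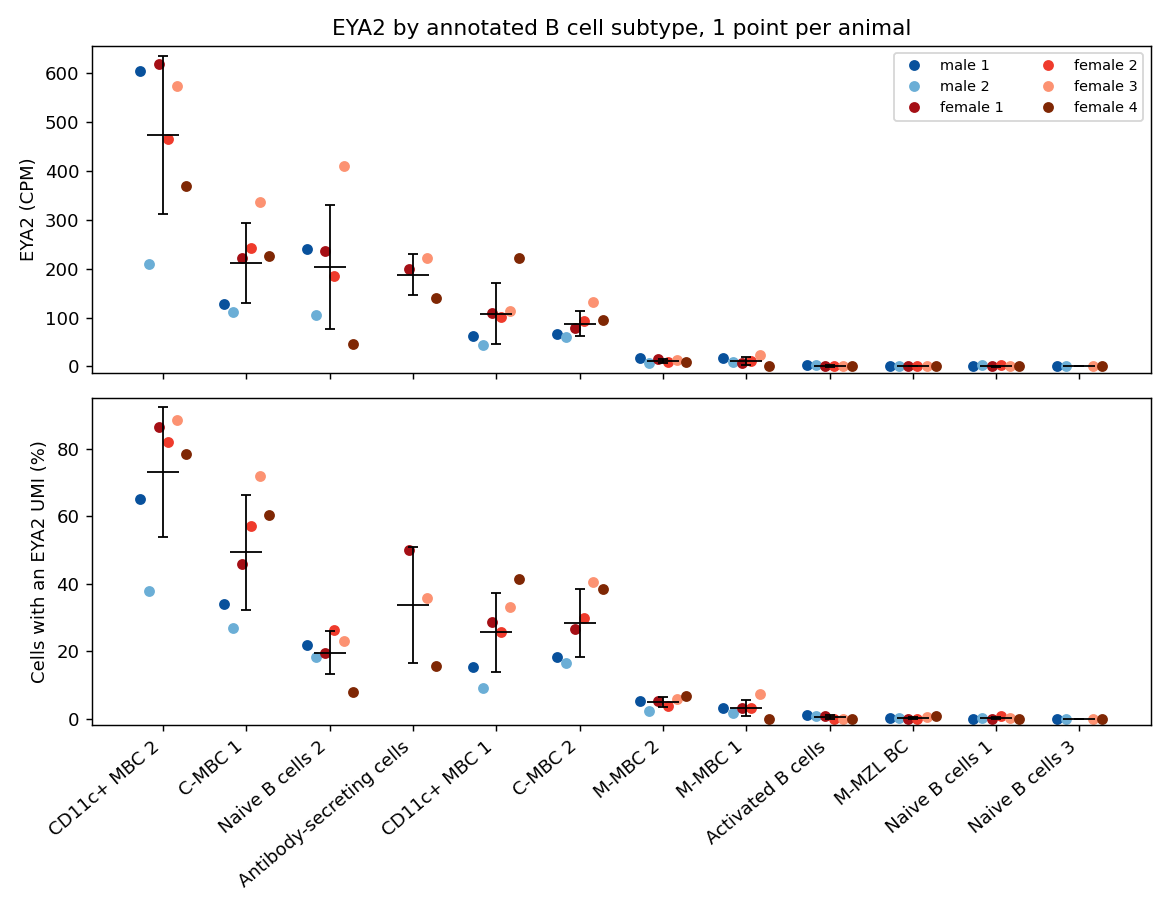
EYA2 by annotated subtype, ordered by mean level: CPM per animal (top) and percent of cells with 1 or more EYA2 UMIs (bottom). Each point is 1 animal with 10 or more cells of the subtype, and the black mark and bar are the mean and SD over animals; the 6 points of CD11c+ MBC 2 span 209 to 619 CPM and those of Naive B cells 1 lie near 0.

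In C-MBC 1, C-MBC 2, CD11c+ MBC 1, CD11c+ MBC 2 and M-MBC 1, switched cells held more EYA2 than unswitched cells of the same animal wherever each class had 10 or more cells, while M-MBC 2 was mixed. In CD11c+ MBC 2, switched cells stood at 703 and 227 CPM in males 1 and 2 and at 704, 467, 606 and 391 CPM in females 1 to 4. Unswitched cells of that subtype stood at 503 and 33.5 CPM in the males and at 408, 369 and 260 CPM in females 1 to 3, and female 4 had too few. The switched value was the higher one in 5 of 5 animals, although the ranges of the classes overlapped across animals. The log2 difference fitted with edgeR was 0.84 ± 0.12 (SE). Here and below, such an SE is that of the fit and not the spread between animals. The log2 differences of the single animals, on log2(CPM + 1), averaged 1.11 ± 0.96 (SD, n = 5).

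In C-MBC 1, switched cells held 120 and 156 CPM in the males and 225, 297, 351 and 242 CPM in the females, against 89.6 and 43.9 CPM in unswitched cells of the males and 58.2, 188 and 136 CPM in those of females 1 to 3. All 5 animals with both classes had more in switched cells, by 1.34-fold to 3.87-fold, with a fitted log2 difference of 1.30 ± 0.19 (SE). In CD11c+ MBC 1, switched cells averaged 159 ± 78.1 CPM and unswitched cells 52.1 ± 17.7 CPM (SD, n = 6 each; log2 difference 1.45 ± 0.14 SE), and the switched value was higher in 6 of 6 animals. In M-MBC 1 the averages were 36.3 ± 17.2 CPM in switched cells and 6.83 ± 6.55 CPM in unswitched cells of the same 5 animals (log2 difference 2.36 ± 0.48 SE), again with the switched value higher in every one of them. Few cells carry this: the switched value rests on 1 positive cell of 10 in female 2, of 19 in male 1 and of 29 in male 2. M-MBC 2 had 10 or more cells of both classes in 3 animals. Switched cells there held 34.3, 30.3 and 0 CPM in females 1 and 3 and male 2, against 13.2, 11.5 and 9.91 CPM in their unswitched cells. The 0 of male 2 comes from 13 switched cells, so that pair ran the other way on few cells.

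C-MBC 2 showed the difference in another form. Switched cells held 46.1 and 77.2 CPM in the males and 81.9, 78.0, 123 and 104 CPM in the females. None of its 70 unswitched cells held an EYA2 UMI, which allows up to 4.29% of cells or 7.04 CPM over the group; switched C-MBC 2, at 89.1 CPM over all animals, were thus at least 12.7-fold higher. This limit covers counting error only.

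**Figure D2:**
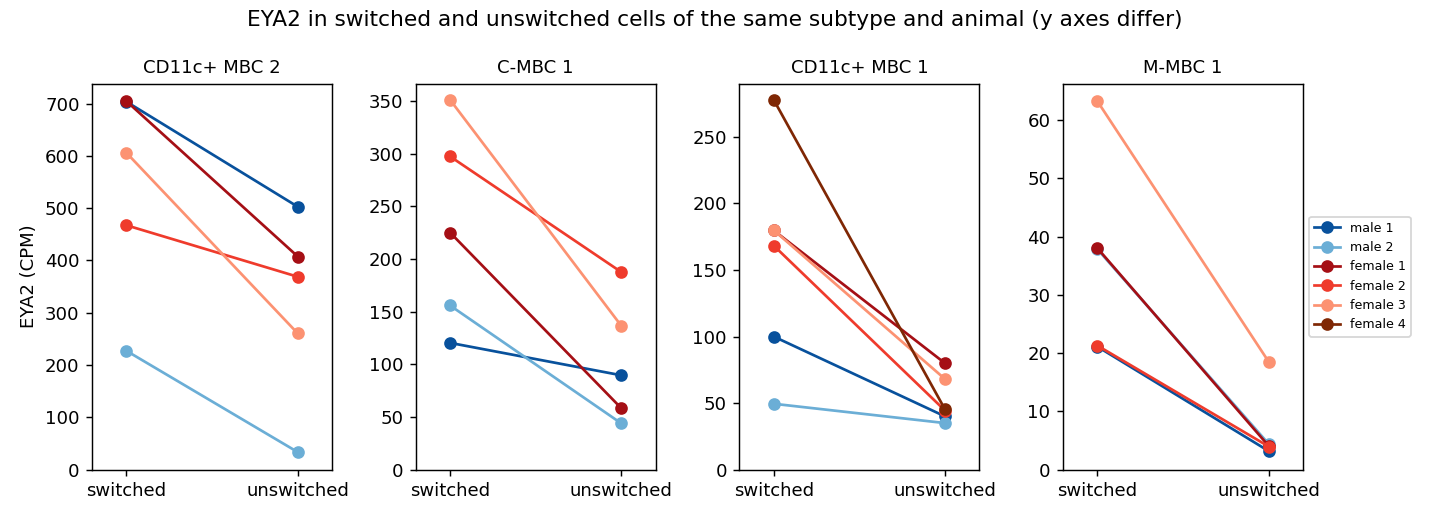
EYA2 CPM in switched and unswitched cells of 4 memory subtypes, with a line joining the classes of 1 animal where each had 10 or more cells. Every line falls towards unswitched, in 5, 5, 6 and 5 animals from left (CD11c+ MBC 2, C-MBC 1, CD11c+ MBC 1 and M-MBC 1); the y axes differ between panels.

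Class alone did not order the levels, and the name "switched memory" describes EYA2 only in part. Unswitched CD11c+ MBC 2 averaged 315 ± 179 CPM (SD, n = 5), against 36.3 ± 17.2 CPM in switched M-MBC 1 (SD, n = 5). Unswitched CD11c+ MBC 2 exceeded switched C-MBC 1 in females 1 and 2 and in male 1, and lay below it in female 3 and male 2. Over all memory cells, EYA2 stood at 254 and 115 CPM in switched cells of the males and 342, 295, 404 and 220 CPM in those of the females, against 52.1 and 19.9 CPM and 82.0, 69.0, 73.5 and 10.53 CPM in unswitched cells. The fitted log2 difference was 2.33 ± 0.11 (SE, n = 6) over all memory cells, where the values of single animals, on log2(CPM + 1), averaged 2.60 ± 0.83 (SD). With the subtype held as a block it was 1.22 ± 0.15 (SE, 63 sums of 6 animals). Sums of the same animal enter that second fit as separate points, so its SE rests on fewer animals than points.

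IgG made up nearly all switched cells of the memory subtypes other than C-MBC 2. Switched antibody-secreting cells were 15 IgA, 2 IgE and 10 IgG cells, and switched M-MZL BC were 13 IgA and 23 IgG cells. In C-MBC 2 alone did any animal have 10 or more cells of both IgA and IgG. IgA cells of C-MBC 2 stood at 59.6 and 54.1 CPM in the males and at 70.1, 50.4 and 31.6 CPM in females 1, 3 and 4. IgG cells of C-MBC 2 stood at 39.6 and 94.3 CPM in the males and at 63.7, 166 and 114 CPM in the same females. IgA was above IgG in male 1 and female 1 and below it in the other 3 animals, and the ranges overlapped.

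Some clones held both a switched and an unswitched cell, and 4 of the 7 such clones had an identical CDR3 (the junction of the heavy chain V region) in both cells and EYA2 in at least 1. Their CDR3 sequences are shown because the cells of a clone descend from 1 rearrangement and differ in class; capitals mark the first and last codon.
IGHV3-37 clone of female 1: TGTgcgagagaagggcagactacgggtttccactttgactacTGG
IGHV3-59 clone of female 1: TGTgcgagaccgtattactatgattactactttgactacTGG
IGHV1-200 clone of female 3: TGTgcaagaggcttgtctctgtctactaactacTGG
IGHV3-134 clone of female 3: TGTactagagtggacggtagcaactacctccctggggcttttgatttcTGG
The IgG cell of the IGHV3-37 clone held 4 EYA2 UMIs and its IgM cell 1, both annotated CD11c+ MBC 2. The IgG cell of the IGHV3-59 clone, annotated CD11c+ MBC 1, held 1 EYA2 UMI, and its IgM cell, annotated C-MBC 1, held 6. The IGHV1-200 clone had 0 in its IgG cell (M-MBC 2) and 2 in its IgM cell (CD11c+ MBC 2). The IGHV3-134 clone had 1 in its IgG cell (C-MBC 1) and 2 in its IgM cell (M-MBC 1). In 3 of these 4 clones the unswitched cell thus held the higher EYA2 count, each from a single cell, and the members of those 3 clones lay in different subtypes.

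Naive B cells 2 were the subtype in which EYA2 went against the name naive, and the cells were divided by the contigs assembled for them. EYA2 was not alone in setting them apart from Naive B cells 1. The CD11c gene ITGAX averaged 462 ± 199 CPM in Naive B cells 2 and 11.3 ± 4.19 CPM in Naive B cells 1. TCL1A averaged 4.44 ± 4.42 and 105 ± 62.8 CPM there (SD, n = 6 each), and was also low in Naive B cells 3, at 8.08 ± 16.2 CPM (SD, n = 4). Of cells with a switched heavy chain contig, 8 of 14 held an EYA2 UMI (57.1%, exact 95% interval 28.9 to 82.3%). Of cells with only unswitched heavy chain contigs, 5 of 65 did (7.69%, 2.54 to 17.0%). Cells with a light chain contig or no known class gave 15 of 30 (50%, 31.3 to 68.7%), and cells with no contig at all gave 67 of 337 (19.9%, 15.8 to 24.5%). These are cells pooled over animals, the intervals cover counting error only, and EYA2 was chosen partly on this split, so the shares are given with no test.

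Cells with no contig were 337 of the 446 Naive B cells 2 and held 234 of their 320 EYA2 UMIs, and female 3 alone gave 191 of those cells and 161 of those UMIs. Cells with no contig had a median of 2192 UMIs, 0.875% ribosomal UMIs and 5.44% mitochondrial UMIs, against 4776 UMIs, 9.91% and 2.14% in cells with an unswitched contig and 4112 UMIs, 8.62% and 3.63% in cells with a switched contig. The part of these differences in the EYA2 shares was not tested. Thinned to 1000 UMIs a cell, the expected shares were 27.4% with a switched contig, 2.21% with an unswitched contig, 23.8% with a light chain or no class, and 14.7% with no contig. EYA2 in cells with a switched contig was found in 5 of the 5 animals that had such cells, each with 1 to 5 of them.

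**Figure D3:**
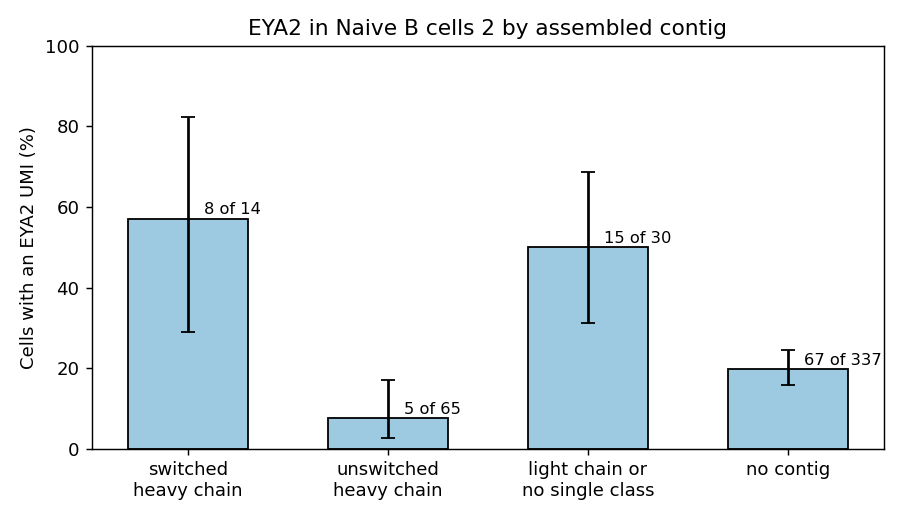
Percent of Naive B cells 2 with 1 or more EYA2 UMIs by the contig assembled for the cell, pooled over animals. Bars are shares with exact 95% binomial intervals, and the counts are positive cells of all cells: 8 of 14 with a switched heavy chain and 5 of 65 with an unswitched one.

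To ask whether EYA2 followed the mutation of the receptor itself, a measure the choice of the gene had not used, cells were split at the median divergence, in mismatches per 100 bases, between their IGHV region and the closest sequence that was common in that animal. EYA2 was higher in the more diverged cells of every switched subtype that could be split, but in M-MBC 2 this was 1 animal with nearly equal values. In switched C-MBC 1 the more diverged cells held 157 and 184 CPM in the males and 270, 342 and 381 CPM in females 1 to 3, against 85.0 and 134 CPM and 136, 265 and 328 CPM in the less diverged cells. The difference pointed the same way in 5 of 5 animals (log2 difference 0.51 ± 0.14 SE), but its adjusted p of 0.2045 by edgeR's quasi-likelihood test missed the threshold of 0.05; 9 of 3511 genes, or 0.256%, passed it. Median UMIs per cell ran from 4656 to 8046 in the more diverged and from 4178 to 8034 in the less diverged cells of these animals.

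In switched CD11c+ MBC 2 the more diverged cells held 833 and 243 CPM in the males and 766, 576 and 638 CPM in females 1 to 3, against 522 and 232 CPM and 640, 443 and 575 CPM in the less diverged. This was higher in 5 of 5 animals, by a log2 difference of 0.28 ± 0.09 (SE) that did not pass (adjusted p = 0.218 by edgeR; 0.39% of 4106 genes passed). In switched CD11c+ MBC 1 the averages were 198 ± 79.7 CPM in more and 76.9 ± 39.3 CPM in less diverged cells (SD, n = 5), and in switched C-MBC 2 they were 127 ± 59.3 and 44.6 ± 10.49 CPM (SD, n = 4). Both were higher in every animal measured. Switched M-MBC 1 could be split in 3 animals and averaged 84.8 ± 12.9 CPM in more and 20.8 ± 21.7 CPM in less diverged cells (SD), higher in all 3. Switched M-MBC 2 could be split in 1 animal, at 28.3 against 28.0 CPM.

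Over all switched memory cells split within animal and subtype, with both as blocks, EYA2 rose with divergence by 0.69 ± 0.12 on the log2 scale (SE, adjusted p = 0.000198 by edgeR; 0.616% of 2761 genes passed). The more diverged cells were higher in 23 of 23 pairs of an animal and subtype, from 5 animals, with the M-MBC 2 pair nearly equal. Sums of the same animal enter that fit as separate points, so its p rests on fewer animals than points. Without the subtype block the difference was 0.89 ± 0.10 (SE, n = 6, adjusted p = 1.26e-05 by edgeR; 2.66% of 6549 genes passed). CD11c+ MBC 2 made up 40.2% of those more diverged and 20.3% of those less diverged cells, and CD11c+ MBC 1 made up 6.56% and 32.5%.

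Unswitched cells gave no single answer. In unswitched CD11c+ MBC 1 the more diverged cells held 42.7 and 57.8 CPM in the males and 132, 60.2 and 100 CPM in females 1 to 3, against 36.2 and 24.5 CPM and 55.3, 30.1 and 56.6 CPM in the less diverged, whose median divergence was 0. EYA2 rose there in 5 of 5 animals (log2 difference 0.94 ± 0.17 SE, adjusted p = 8.18e-05 by edgeR; 2.85% of 6181 genes passed). The level did not climb steadily with divergence: over all animals it was 45.4 CPM in cells with 0 mismatches, 86.5 CPM at over 0 to 2 per 100 bases, 78.0 CPM at over 2 to 5 and 42.4 CPM at over 5 (47 cells). By DESeq2 the adjusted p of the split was 0.0652, and without the animal as a block edgeR gave 1.00. In unswitched CD11c+ MBC 2 the averages were 327 ± 217 CPM in more and 312 ± 153 CPM in less diverged cells (SD, n = 5), higher in 3 of 5 animals (log2 difference -0.07 ± 0.16 SE, adjusted p = 0.972 by edgeR; 0.56% of 2678 genes passed). Whether the difference itself varied between subtypes was not tested.

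**Figure D4:**
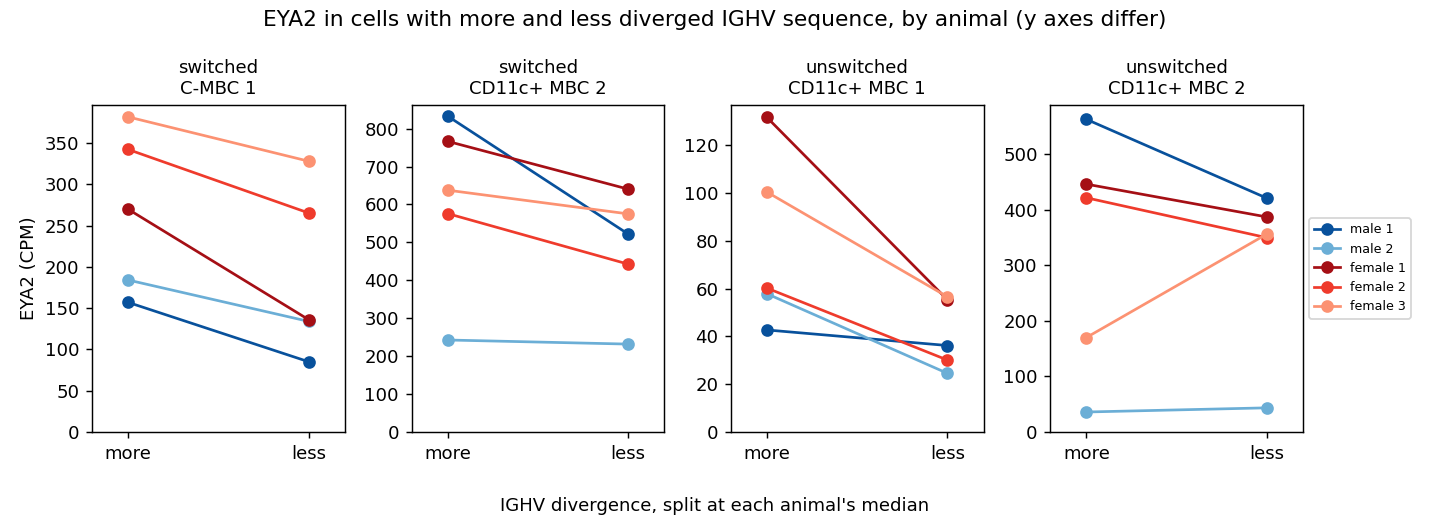
EYA2 CPM in more and less diverged cells of 4 sets, split at the median IGHV divergence of each animal, with a line for each animal. Lines fall from more to less in 5 of 5 animals in the first 3 sets and in 3 of 5 in unswitched CD11c+ MBC 2; the y axes differ between panels.

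The light chain made no detectable difference. Switched C-MBC 1 cells with a kappa chain averaged 242 ± 82.9 CPM and those with a lambda chain 221 ± 102 CPM (SD, n = 6 each), kappa being higher in 3 of 6 animals (log2 difference 0.04 ± 0.13 SE, adjusted p = 0.999 by edgeR). Of 3955 genes, 0 passed that test by edgeR (0%) and 0 by DESeq2, and 122 had an unadjusted p under 0.05 by edgeR. Expanded clones, those with 2 or more cells, could be set beside single cells only over all switched memory cells and in 2 animals, females 1 and 3, since no animal had 10 expanded cells in C-MBC 1. Their averages were 467 ± 28.8 CPM in expanded and 369 ± 46.9 CPM in single cells (SD, n = 2; log2 difference 0.30 ± 0.19 SE, adjusted p = 0.999 by edgeR).

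Switched memory cells of the males held 254 and 115 CPM, and those of the 4 females 220 to 404 CPM, so the ranges overlapped. The log2 difference, male over female, was -0.66 ± 0.36 (SE, adjusted p = 0.453 by edgeR, n = 2 and 4; 0.227% of 8826 genes passed). It was -0.20 without male 2 and -1.33 without male 1. In switched C-MBC 1 alone, the males lay at 120 and 156 CPM and all 4 females above them at 225 to 351 CPM, and the adjusted p was 0.323 by edgeR.

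Cells with and without a detected EYA2 UMI were next compared within switched C-MBC 1, each thinned to 2000 UMIs so that both classes had 1 depth. A cell was EYA2-positive if it kept 1 or more EYA2 UMIs after thinning. The EYA2-negative class thus includes cells that held EYA2 UMIs before thinning. In female 1, 149 cells were negative after thinning and 99 at full depth. In 5 animals with 10 or more cells of each kind, 1 gene was higher in EYA2-positive cells (0.065% of 1539 tested) and 8 were lower (0.52%). The higher one was ITGAX, which encodes CD11c itself (log2 difference 0.72 ± 0.17 SE, adjusted p = 0.034 by edgeR). The lower ones named were the cytokine genes TNF (-1.38 ± 0.28) and LTB (-1.20 ± 0.23), the GTPase-activating protein gene TAGAP (-0.93 ± 0.21), the kinase gene PIM3 (-0.74 ± 0.18) and the NF-kappa-B inhibitor gene NFKBIA (-0.59 ± 0.13), with adjusted p between 0.00895 and 0.034 by edgeR and the same direction in 5 of 5 animals. These calls were not stable: DESeq2 called 0 genes, and 0 were called without female 1. In CD11c+ MBC 2 the 2 genes called did not include any of these, and the one meeting the naming rule was UVRAG, an autophagy gene (0.41 ± 0.09). In switched C-MBC 1 thinned to 3000 UMIs, the higher genes meeting that rule were ISCA1, ITGB2 and SPAG16, and ITGAX was not among them. LTB, NFKBIA and TAGAP were again called lower at that depth.

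Among the 6200 genes whose log2 CPM averaged 4 or above, the patterns most like that of EYA2 across 67 sums of an animal and subtype were those of TOX, a chromatin-binding HMG-box factor (r = 0.85), MEF2C, a transcription factor of B cells (r = 0.84), and TESC, a calcium-binding protein (r = 0.81). They were followed by SYNE1, STX11, SPAG16, ALCAM, MYO1F, RAP1GAP2 and USP48, at r of 0.79 to 0.76. Over the 12 subtype means the same 10 genes gave r of 0.80 to 0.96. The most opposite patterns were those of TAGAP (r = -0.73), RBM17, the B cell receptor subunit gene CD79B, PDCD4 and SMIM14 (r = -0.72). All points share their libraries and cells, so these values describe likeness only.

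SPAG16, a gene of the axonemal central pair, was also higher in the more diverged cells of switched C-MBC 1 (0.73 ± 0.10, adjusted p = 0.000115), switched CD11c+ MBC 2 (0.82 ± 0.08), unswitched CD11c+ MBC 1 (2.20 ± 0.10) and unswitched CD11c+ MBC 2 (0.76 ± 0.14), each called by edgeR and in 5 of 5 animals. The EYA2 differences in those sets passed only in unswitched CD11c+ MBC 1, and the genes were not tested against each other.

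**Figure D5:**
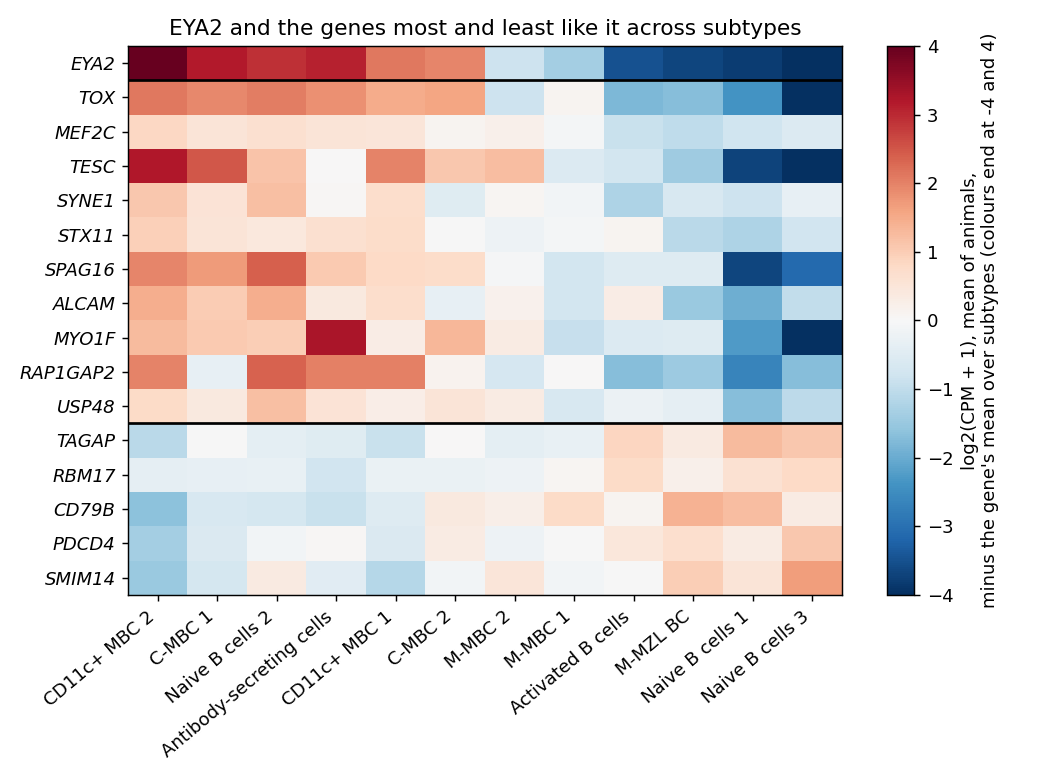
Mean log2(CPM + 1) of EYA2 (top row), the 10 genes most like it and the 5 least like it, each centred on its own mean over the 12 subtypes, with subtypes ordered by mean EYA2 CPM. Red is above and blue below the gene's mean; EYA2 and TOX are red from CD11c+ MBC 2 to C-MBC 2 and blue from Activated B cells to Naive B cells 3.

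The relatives and partners of EYA2 were next read in the same libraries. EYA3, the only other family member with more than traces, did not pass (log2 difference, switched over unswitched memory cells, -0.04 ± 0.10 SE, adjusted p = 0.855 by edgeR), and its highest subtype was Naive B cells 2 at 120 ± 33.9 CPM (SD, n = 6). EYA1 had 6 UMIs and EYA4 had 26 UMIs in all B cells. Of the sine oculis homeobox and DACH partner genes none could be tested: SIX3 had 14 UMIs, SIX4 had 2, SIX5 had 27, DACH1 had 11 and DACH2 had 4 over all B cells. Of the PAX family, PAX5, which maintains B cell identity, was the only one tested and fell by 0.50 ± 0.06 (SE, adjusted p = 1.19e-05 by edgeR). PAX2, PAX6, PAX7 and PAX8 had 16, 12, 3 and 1 UMIs, and PAX3 had 0.

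Of 9247 genes tested between switched and unswitched memory cells, 657 were higher in switched cells (7.11%) and 641 lower (6.93%). Of 12 tested genes of the list around the EYA phosphatase and the DNA damage response, 0 rose and 1 fell, the double-strand break gene MRE11 (-0.43 ± 0.13, adjusted p = 0.0275), and MAPK8, a stress kinase, gave -0.19 ± 0.09 without passing. The list's median was -0.0079, against -0.0022 over all genes. Of 16 class switching genes 2 rose, the AP-1 factor BATF (0.79 ± 0.10) and the uracil glycosylase UNG (1.02 ± 0.27).

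Of 18 memory genes 13 rose and 0 fell, among them CRIP1 (0.83 ± 0.05) and S100A10 (0.59 ± 0.04), with a list median of 0.46. Of 17 naive genes 2 rose and 7 fell, with FOXP1, which restrains plasma cell differentiation, at -0.99 ± 0.07 and the inhibitory receptor CD72 at -2.24 ± 0.18. Of 8 plasma and secretory genes 4 rose and 2 fell, led by the signal peptidase gene SEC11C (0.61 ± 0.08) and the plasma cell regulator PRDM1 (1.02 ± 0.18). Of 8 B cell markers 6 fell and 0 rose, PAX5 and CD79A (-0.29 ± 0.04) having the smallest p. All these values are log2 differences with SE by edgeR.

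Markers of other cells were read beside this. Of 9 T cell markers 1 rose and 3 fell, among them CD2 (-1.01 ± 0.19) and CD8A (-0.83 ± 0.20), and the summed level of all 11 was 68.6 to 312 CPM in switched and 116 to 385 CPM in unswitched memory cells. Of 3 NK cell markers NKG7 rose (0.73 ± 0.19) and GNLY gave 0.17 ± 0.16, with sums of 25.2 to 435 CPM in switched and 9.09 to 362 CPM in unswitched cells. Of 2 monocyte markers CST3 rose (0.77 ± 0.17) and LYZ fell (-0.54 ± 0.10), with sums of 53.3 to 89.4 CPM in switched and 53.5 to 136 CPM in unswitched cells. The dendritic marker ZBTB46 (0.41 ± 0.18) and the platelet markers PF4 (-0.22 ± 0.12) and PPBP (-0.16 ± 0.10) did not pass. Their part in the class difference was not tested.

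With the subtype held, 58 of 4913 genes were higher in switched cells (1.18%) and 62 lower (1.26%). These calls come from 63 sums of 6 animals taken as separate points, so they rest on fewer animals than points. Of 16 memory genes 2 rose, S100A10 (0.28 ± 0.05) and CRIP1 (0.27 ± 0.07), and of 11 naive genes 2 fell, FOXP1 (-0.48 ± 0.09) and BACH2 (-0.45 ± 0.12). None of 7 damage response genes, 9 class switching genes or 8 B cell markers passed. EYA3 gave 0.15 ± 0.12 and PAX5 -0.12 ± 0.07, and neither passed by edgeR.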

How the data were processed

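The authors deposited 1 matrix of raw UMI counts for all cells, a cell table and 1 contig table per animal. The submitters' processing notes name Seurat 5.0.1, Cell Ranger 9.0.1 and R 4.3.1 without a role; genome build and annotation are not given in the sources used here. Per the file headers, the cell table gives the percent of mitochondrial and ribosomal UMIs, and a doublet call that is singlet for all 13849 cells; every cell had 500 or more UMIs and under 10% mitochondrial UMIs. Contig UMI counts were used as deposited.

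Counts were summed per animal and class (10 or more cells) and tested with edgeR 4.0.16's quasi-likelihood test (TMM, filterByExpr, Benjamini-Hochberg over all genes, threshold 0.05). Classes of 1 animal come from the same library, so the animal was a block, except between sexes. The 5813 unnamed identifiers (14.9% of UMIs) and 23 immunoglobulin genes stayed out of totals and tests. An IGHV region's divergence is its mismatches per 100 bases to the nearest sequence seen with 3 or more different CDR3 in unswitched cells of the animal; a clone shares V gene, J gene and CDR3 amino acids. DESeq2 1.42.0, other filters, totals and depths, and leaving out each animal were alternatives. On simulated counts the test was checked with 200 changed genes per comparison. EYA2, its partners and all lists were chosen with earlier results of these data known; of other genes the text names the 10 most and 5 least like EYA2, up to 6 called genes a direction, and the 2 of each list with the smallest p. Libraries of separate animals are the replicates.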

Additional observations from a re-analysis of the deposited data

Results flagged for a closer look

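Of 33 sets of 4 to 6 animals examined, 2 held an animal far from the others, where chance gives about 1 in 20. Unswitched M-MBC 1 of female 3 held 18.5 CPM of EYA2, against 0 to 4.41 CPM in the other 5 animals. The log2 difference of switched over unswitched memory cells was 4.26 in female 4, computed on log2(CPM + 1), against a mean of 2.60 ± 0.83 (SD) over all 6 animals; female 4 had 80 unswitched memory cells. Outside the annotated B cells, 3.62% of the 525 Contamination cells held an EYA2 UMI (19 cells), above the 0.186% of Naive B cells 1.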

How the results depend on the processing

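Switched over unswitched memory cells, the log2 difference of EYA2 was 2.33, lay between 2.27 and 2.51 in every alternative over all memory cells and 2.36 in M-MBC 1 alone, but was 1.30 in C-MBC 1, 1.45 in CD11c+ MBC 1 and 0.84 in CD11c+ MBC 2 alone. The 1298 genes called there were 825 by DESeq2, 28 without the replicate block (the animal) and 794 to 1291 without 1 animal, the lowest without female 3. With the subtype held, the 120 genes called were 270 without the filter on low counts, 15 without the replicate block and 78 to 120 without 1 animal. The kappa over lambda difference of 0.04 lay between -0.040 and 0.15 without 1 animal. For divergence in switched C-MBC 1, the 0.51 was 0.89 over all switched memory cells (adjusted p = 1.26e-05 by edgeR), 0.69 within subtype (0.000198), 0.94 in unswitched CD11c+ MBC 1 (8.18e-05) and -0.070 in unswitched CD11c+ MBC 2. The unswitched CD11c+ MBC 1 value kept its size at 0.93 by DESeq2 and 0.92 without the replicate block but did not pass there; the value within subtype passed in all its alternatives. The 9 genes called between EYA2-positive and EYA2-negative cells were 0 by DESeq2, 0 without the replicate block, 2 with unnamed and immunoglobulin genes kept, 18 at 3000 UMIs, 100 at full depth, 2 in CD11c+ MBC 2 and 0 to 11 without 1 animal, the lowest without female 1. Of the 10 genes most like EYA2, 6 stayed among the 10 without Naive B cells 2 and 3 and 9 to 10 without 1 animal. Shares in Naive B cells 2 fell with thinning, as given in the report (27.4%, 2.21%, 23.8% and 14.7%). The causes of these changes were not tested. The comparison of expanded clones in C-MBC 1 could not be fitted. Between sexes, leaving out 1 male leaves a single male, assumed to vary like the females. Droplet depth limits positive shares, and 10 to 20 cells a sum limit the scarcer classes.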
